A study of Sus scrofa with 6 samples.

Results

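Cytokines, chemokines and their receptors were examined in the longissimus dorsi, the long muscle of the back, of Shaziling and Yorkshire piglets. The probe sets were taken by name from the array's annotation: interleukins, CC and CXC chemokines and their receptors, the TNF and TNF receptor superfamilies, interferons, TNF, LTA and the colony-stimulating factors CSF1, CSF2 and CSF3, or a gene title that opens with interleukin or chemokine. This gave 87 of 23999 non-control probe sets, under 76 gene entries. Over the whole array 6647 gene names were counted. That count leaves out probe sets of several genes and a further record under the symbol CXCL2, while the 76 include such entries. Of the 87, 71 were found by symbol and 16 by title alone. Of all 87, 6 carry such a name for other reasons: among them, ILF2 is an RNA-binding protein, IRAK1 is a kinase downstream of the interleukin-1 receptor, and NOCT, a regulator of metabolism under circadian control, was found through its old symbol CCRN4L. They are described separately as matched by name only but are counted in the totals over the 87, and the other 81 probe sets belong to 72 genes of the cytokine system.

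Total RNA of 6 male piglets, all 25 days old and with no treatment named in the labels, was measured on Affymetrix porcine arrays, each array holding 1 animal. The 3 Shaziling piglets (replicates 4, 5 and 6) belong to an indigenous Chinese breed and the 3 Yorkshire piglets (replicates 1, 2 and 3) to a breed used in commercial pork production. Per the labels' protocols, each breed was represented by full-sib brothers and the 2 breeds were kept on different farms, so breed, litter and farm cannot be told apart, and every p-value here rests on how much siblings differ. Values are log2 MAS5 signals, and a detection call (Present, Marginal or Absent) says whether a probe set's perfect-match probes stood above their mismatch probes on that array.

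Cytokines are secreted proteins that carry messages between cells, and chemokines are the cytokines that direct cell migration along gradients. Most interleukins and interferons act through paired receptor chains that start JAK and STAT signalling, the TNF and interleukin-1 families act largely through NF-kB, and chemokines act through G protein-coupled receptors. In skeletal muscle they come from resident macrophages, vessels and connective tissue and from the fibres themselves, which release so-called myokines such as IL6 and IL15. Whole muscle was profiled, so fewer cells of a type and less RNA per cell cannot be told apart.

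The arrays were alike in overall detection, with 56.3% to 60.6% of probe sets Present. Their trimmed mean signal of 500.1 to 500.2 on the linear scale was set by the scaling of all arrays to one level. All 7 skeletal muscle markers on the array (ACTA1, CKM, MYH4, MYH7, TNNT3, DES and MB) passed the detection filter, with a summed linear signal of 188391 to 216674 in Shaziling and 159371 to 209909 in Yorkshire. Each marker gene was represented by its probe set of highest mean signal. Of the 7 macrophage and monocyte markers on the array, 6 passed the filter. Of the 11 T and NK cell markers on the array, 8 were Present on none, among them CD3D, CD3E, CD4 and LCK. The other markers of that list passed the filter, with CD8A Present on 6 arrays, CD8B on 5 and CD3G on 4. The B cell marker CD79B was Present on none.

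Most probe sets of the cytokine system gave no steady signal above background in these muscles. Of the 87 probe sets, 25 were Present on all 6 arrays (28.7%), against 47.9% of all non-control probe sets. Without those matched by name only it was 20 of 81 (24.7%). A further 10 were Present on 3 to 5 arrays, 12 on 1 or 2 arrays and 40 on none (46.0%, against 28.8% of all). The 25 belonged to 21 genes, and the 40 included every probe set of 36 genes. Detection did not separate the breeds: 31 to 38 of the 87 were Present on each Shaziling array and 32 to 37 on each Yorkshire array, or 104 Present calls in Shaziling and 105 in Yorkshire of 261 possible in each. No probe set was Present on all arrays of one breed and on none of the other (0 of 87), where 0.208% of all non-control probe sets had this pattern with Shaziling detected and 0.392% with Yorkshire detected.

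Receptors were detected more often than ligands. Of 48 ligand probe sets, 8 had a Present call on every array (16.7%) and 25 on none, and of 31 receptor probe sets 12 were Present on all 6 (38.7%) and 13 on none. The contrast was plain for interferons, the antiviral cytokines, whose 4 ligand probe sets (IFNA1, IFNB1, IFNG and IFN-DELTA-1) had no Present call while both receptor chains, IFNAR1 and IFNGR1, were Present on all 6. It was also seen for the TNF family, with 3 of 3 receptor probe sets and 1 of 3 ligand probe sets Present on all 6. For chemokines it was not seen, with 3 of 10 receptor probe sets Present on all 6, against 6 of 18 for the ligands. The number of probe sets differs between roles and their probes differ in affinity, so these counts are a description.

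**Figure D1:**
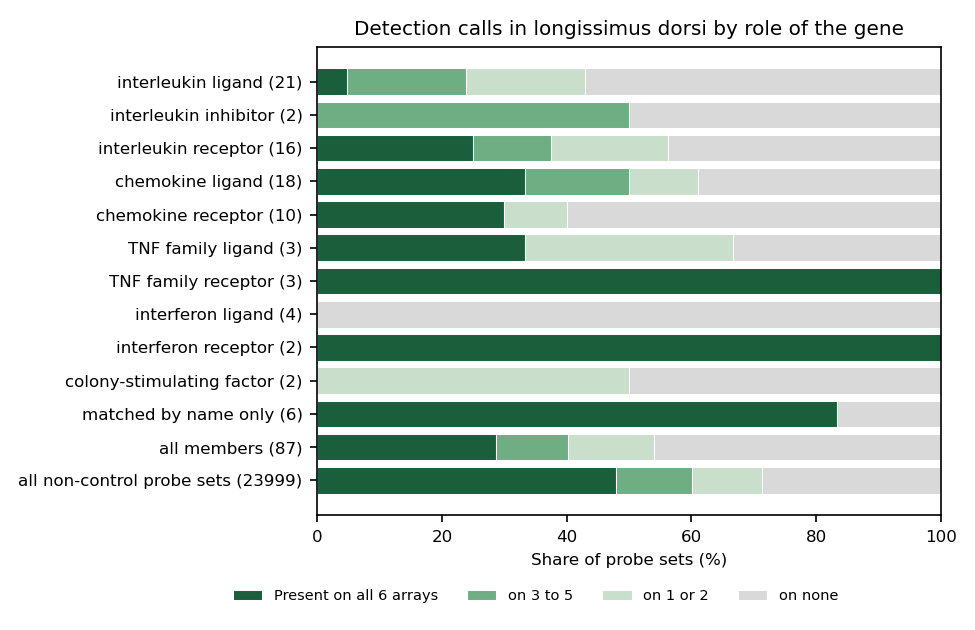
Share of probe sets (horizontal axis, percent) by the number of arrays on which they were called Present, for each role, for all 87 chosen by name and for all 23999 non-control probe sets; the number in brackets is the number of probe sets. Interferon ligands are Present on none, interferon and TNF receptors on all 6 arrays, and interleukin ligands are Present on all 6 for 1 of 21.

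An Absent call belongs to the probe set and its probes, not to the gene. IL11RA had 3 probe sets, Present on 6, 1 and 0 arrays, and IRAK1 had 2, Present on 6 and 0. IL6ST, the signalling chain gp130 shared by the interleukin-6 family, and IL6R were each represented by 1 probe set that was Present on none. The 40 probe sets Present on none had mean signals of 1.25 to 6.55 (log2, median 3.83), and the 25 Present on all 6 had 6.09 to 11.38 (median 8.41). Differences between breeds in signals that were called Absent were not read, since both sides have only a bound there. Signals of different probe sets are not compared as levels of their genes.

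Among interleukin ligands 1 of 21 probe sets was Present on all 6 arrays, that of IL15, a cytokine that fibres make and that supports lymphocytes. IL15 (chromosome 8, 73773316 to 73846206 in the file, whose assembly could not be read) had signals of 8.05, 7.77 and 7.76 in Shaziling and 7.16, 7.81 and 7.25 in Yorkshire. Yorkshire replicate 2 reached the Shaziling range, so the breeds overlapped. The difference was 0.46 ± 0.27 (log2, Shaziling minus Yorkshire, ± the model's SE, n = 3 each; limma adjusted p = 0.599).

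Another 4 interleukin ligands were Present on 3 to 5 arrays. IL18, which induces interferon gamma, was Present on 4, with signals of 6.82, 3.90 and 6.93 in Shaziling and 7.27, 6.35 and 7.15 in Yorkshire. Shaziling replicate 5 was the low array and was called Absent, and the difference of -1.04 ± 0.73 shrank to -0.05 without it. IL16, a chemoattractant for CD4 cells, had signals of 7.02, 5.97 and 7.12 in Shaziling and 6.53, 6.53 and 7.20 in Yorkshire. IL10, an anti-inflammatory cytokine, had signals of 5.08, 4.71 and 5.71 in Shaziling and 5.36, 5.16 and 5.11 in Yorkshire. IL1B, the inflammatory product of activated macrophages, was Present on 3 arrays with one of its probe sets, at 6.66, 7.26 and 6.64 in Shaziling and 7.10, 7.18 and 6.67 in Yorkshire. All 3 genes overlapped between breeds, with differences of -0.05, -0.04 and -0.13.

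IL6, the best known myokine, was Present on 1 array, Shaziling replicate 4, at 4.91, with 5.35 and 5.02 (Absent) on the other Shaziling arrays and 4.28, 4.06 and 3.72 (Absent) in Yorkshire. IL5 and IL21 and a probe set shared by IL1B and IL1B2 were Present on 1 or 2 arrays, with no breed detected throughout. The probe sets of IL1A, IL2, IL4, IL7, IL12A, IL12B, IL13, IL17A, EBI3 and an interleukin-17B-like gene were Present on none. These are products of activated lymphocytes, dendritic cells or damaged epithelium for the most part.

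Of the 2 inhibitors, IL1RN, the natural antagonist of the interleukin-1 receptor, was Present on none. IL18BP, a secreted protein that binds and neutralises IL18, was Present on 5 arrays, with signals of 8.18, 7.99 and 7.58 in Shaziling and 8.26, 8.57 and 8.31 in Yorkshire. All Shaziling values lay below all Yorkshire values, narrowly, and the difference of -0.46 ± 0.25 did not pass (limma adjusted p = 0.563).

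Interleukin receptors held the smallest p-value of the set. IL11RA, the binding chain for interleukin-11 and a partner of gp130, was read by 1 detected probe set (chromosome 10, 30583161 to 30591625), which the file titles as the IL11RA-like gene. Its signals were 9.38, 9.04 and 9.30 in Shaziling and 10.19, 10.29 and 9.70 in Yorkshire. Every Shaziling array lay below every Yorkshire array. The difference was -0.82 ± 0.23, or 1.76-fold lower on the linear scale, with a 95% interval of -1.34 to -0.30, and did not pass after adjustment over all 14413 tested probe sets (limma adjusted p = 0.285). The mean over all 3 IL11RA probe sets, of which the other two were mostly Absent, differed by -0.37 (limma adjusted p = 0.670).

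IL10RB is the accessory chain of the receptors for IL10, IL22, IL26 and type III interferons, and both of its probe sets were Present on all 6 arrays. The brighter one had signals of 9.20, 9.01 and 9.78 in Shaziling and 8.44, 8.83 and 8.46 in Yorkshire. The dimmer one had 7.64, 6.95 and 7.82 in Shaziling and 6.15, 7.05 and 6.17 in Yorkshire. Both were on average higher in Shaziling, the brighter without overlap and the dimmer with Shaziling replicate 5 under Yorkshire replicate 2. Their differences were 0.75 ± 0.26 (95% interval 0.16 to 1.34, limma adjusted p = 0.348) and 1.01 ± 0.36 (0.20 to 1.82, limma adjusted p = 0.363). They read the same gene on the same arrays and are not independent.

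IL27RA, the ligand-binding chain for interleukin-27, had signals of 6.12, 6.24 and 5.47 in Shaziling and 5.30, 2.63 and 5.64 in Yorkshire, and Yorkshire replicate 2 was called Absent. Its difference of 1.42 ± 0.75 was 0.47 without that array. IL7R, the receptor chain for interleukin-7 on lymphocytes, was Present on 3 arrays. Its signals were 5.998, 5.77 and 5.64 (Absent) in Shaziling and 5.10 (Absent), 5.42 (Absent) and 5.59 in Yorkshire. The separation was narrow, between an Absent Shaziling signal and a Present Yorkshire signal, with a difference of 0.43 ± 0.37. IL13RA1, a chain of the receptors for IL4 and IL13, had 6.45, 6.84 and 6.72 in Shaziling and 6.78, 6.79 and 6.15 in Yorkshire. The ranges overlapped and the difference of 0.10 had a 95% interval of -0.61 to 0.80. IL12RB2 and IL2RG were Present on 2 arrays each, and IL2RA, IL4R, IL18R1, IL6R, IL6ST and a probe set titled interleukin 1 receptor were Present on none. That last probe set carries the symbol IL1-R MYD88, so it may not read a receptor chain, but it is counted here among the receptors.

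Of the chemokine ligands, 6 of 18 probe sets were Present on all 6 arrays. CXCL12, which connective tissue makes in many organs and which retains progenitor cells, had the brightest of them. Its brighter probe set (chromosome 14, 95920229 to 95920575) had signals of 11.43, 11.11 and 10.38 in Shaziling and 10.81, 10.72 and 10.87 in Yorkshire, and the dimmer one had 10.51, 10.61 and 9.80 in Shaziling and 9.41, 10.36 and 9.67 in Yorkshire. Both overlapped between breeds, with differences of 0.17 ± 0.26 and 0.50 ± 0.31. Its receptor CXCR4, found on leukocytes and on muscle progenitors, had 10.90, 9.48 and 9.81 in Shaziling and 10.06, 9.52 and 9.91 in Yorkshire. Shaziling replicate 4 held the highest value and Shaziling replicate 5 the lowest, and the difference was 0.23 ± 0.35. ACKR3, which binds CXCL12 without coupling to G proteins and was not chosen by name, was Present on all 6, with 10.66, 10.92 and 11.79 in Shaziling and 11.70, 11.36 and 12.02 in Yorkshire, a difference of -0.57 ± 0.30 (limma adjusted p = 0.557). Ligand and both receptors were thus all measurable in every animal.

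CXCL14, a chemokine of epithelia and connective tissue, had the most negative difference of the set. Its dimmer probe set (chromosome 2, 125189126 to 125189775) had signals of 7.58, 6.52 and 6.95 in Shaziling and 7.78, 7.93 and 8.78 in Yorkshire, with Shaziling replicate 5 called Absent. All Shaziling values lay below all Yorkshire values, and the difference was -1.15 ± 0.36, with a 95% interval of -1.97 to -0.33 (limma adjusted p = 0.316). The brighter one had 8.57, 7.51 and 7.66 in Shaziling and 7.95, 8.31 and 9.06 in Yorkshire. It overlapped, because Shaziling replicate 4 exceeded 2 Yorkshire arrays, and its difference was -0.52 ± 0.37. The deposited table gives an alignment identity to the genome of 91.0% for the dimmer CXCL14 probe set and 75.9% for the brighter one.

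CXCL2, a neutrophil attractant, was listed under 2 gene records that both carry that symbol. The tested probe set of one record had signals of 6.96, 8.02 and 7.17 in Shaziling and 8.72, 7.32 and 7.35 in Yorkshire, a difference of -0.42 ± 0.43 with overlap. The tested probe set of the other record had 6.38, 7.06 and 7.24 in Shaziling and 6.35, 6.25 and 6.11 in Yorkshire, a difference of 0.66 ± 0.32 without overlap. They differ in sign, and neither passed (limma adjusted p = 0.781 and 0.531), so no direction is given for the symbol. As closely related CXC chemokine genes can share probe sequence, each value belongs to its probe set.

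Several inflammatory chemokines varied widely between siblings. CXCL9, which interferon gamma induces and which attracts T cells, was Present on 3 arrays, with signals of 7.91, 9.64 and 5.74 in Shaziling and 5.46, 5.88 and 7.59 in Yorkshire. It was high in 2 Shaziling piglets and 1 Yorkshire piglet and Absent in the others, and the difference of 1.45 ± 0.89 fell short of the threshold (limma adjusted p = 0.613) and ran between 0.51 and 2.46 as single arrays were left out. CCL2, the monocyte attractant, had 7.38, 6.91 and 4.39 in Shaziling and 7.12, 6.08 and 7.77 in Yorkshire, with the low values of Shaziling replicate 6 and Yorkshire replicate 2 called Absent. CCL4, made by activated macrophages and T cells, had 8.31, 7.86 and 8.08 in Shaziling and 8.66, 7.38 and 9.74 in Yorkshire, where it was highest in replicate 3 and lowest in replicate 2. Their differences of -0.76 ± 0.74 and -0.51 ± 0.50 both changed sign when 1 array was left out, to 0.16 without Shaziling replicate 6 for CCL2 and to 0.06 without Yorkshire replicate 3 for CCL4. The summed linear signal of the macrophage markers was 1733 to 2359 in Shaziling and 1261 to 2485 in Yorkshire, and its part in these values was not tested.

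CXCL8, the classical neutrophil attractant, was Present on 1 array, Yorkshire replicate 1, at 4.59. CCL5, a product of T cells, had signals of 6.47, 6.84 and 6.76 in Shaziling and 6.22, 5.38 and 5.91 in Yorkshire, all called Absent. CCL19 and CCL21, which guide lymphocytes into lymph nodes, and CCL25, CCL27, CCL28 and CCL3L1 were Present on none. A further probe set with the symbol CXCL2 was Present on 1 array.

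Of the chemokine receptors, CCRL2, an atypical receptor that presents chemerin, was Present on all 6 arrays, as was CXCR4. CCRL2 had 5.86, 5.89 and 5.85 in Shaziling and 6.54, 6.09 and 6.32 in Yorkshire. All Shaziling values of CCRL2 lay below all Yorkshire values, and the difference was -0.45 ± 0.32 (limma adjusted p = 0.672). XCR1, a marker of cross-presenting dendritic cells, was Present on 2 Shaziling arrays and no Yorkshire array. The XCR1 signals overlapped between breeds, with 6.21, 6.76 and 6.41 in Shaziling and 5.82, 5.83 and 6.31 in Yorkshire. CCR1, CCR2, CCR3, CCR7, CCR9 and CXCR6 were Present on none.

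Among the TNF family, TNF itself was Present on 1 array, Shaziling replicate 4, at 6.13, and LTA on none. TNFSF10, the death-receptor ligand TRAIL, was Present on all 6, with signals of 8.29, 9.27 and 8.15 in Shaziling and 8.64, 7.78 and 6.92 in Yorkshire. Only Yorkshire replicate 1 reached the Shaziling range, and the difference was 0.79 ± 0.45 (limma adjusted p = 0.585). Leaving out Shaziling replicate 5 made it 0.44. Leaving out Yorkshire replicate 3 made it 0.36 and leaving out Yorkshire replicate 1 made it 1.22, and array weights gave 0.20, so its size depended on single arrays.

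TNFRSF12A, or Fn14, the receptor for the cytokine TWEAK and a gene that muscle induces after injury or denervation, had the largest difference of the set and one of the widest spreads. Its brighter probe set had signals of 10.82, 10.48 and 11.69 in Shaziling and 7.92, 8.14 and 11.47 in Yorkshire, and the dimmer one had 9.86, 9.61 and 10.61 in Shaziling and 7.67, 8.12 and 10.35 in Yorkshire. All 3 Shaziling piglets and Yorkshire replicate 3 were high, and Yorkshire replicates 1 and 2 were low, on both probe sets, whose identifiers differ only in their suffix. The differences were 1.82 ± 0.81 (95% interval 0.00 to 3.64, limma adjusted p = 0.479) and 1.32 ± 0.61 (-0.05 to 2.69, limma adjusted p = 0.501). Without Yorkshire replicate 3 the difference of the brighter TNFRSF12A probe set was 2.97 and passed (limma adjusted p = 0.0311), and that of the dimmer one was 2.14 (limma adjusted p = 0.0672). Without Yorkshire replicate 1 the TNFRSF12A differences were 1.19 and 0.80 (limma adjusted p = 0.799 and 0.816), and without Yorkshire replicate 2 they were 1.30 and 1.02 (0.615 and 0.614). The call for TNFRSF12A thus turned on 1 animal.

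TNFRSF1A, the main signalling receptor for TNF, was Present on all 6, with 8.84, 8.11 and 8.86 in Shaziling and 8.19, 8.58 and 9.56 in Yorkshire. Yorkshire replicate 3 was again the highest of its breed, the breeds overlapped and the difference was -0.17 ± 0.37. The interferon receptor chains overlapped between breeds as well. IFNAR1, for type I interferons, had 8.47, 7.81 and 7.63 in Shaziling and 8.09, 8.10 and 8.58 in Yorkshire (difference -0.29 ± 0.29), and IFNGR1, for interferon gamma, had 9.51, 9.64 and 9.49 in Shaziling and 9.78, 8.95 and 9.30 in Yorkshire (0.20 ± 0.25). Of the colony-stimulating factors, CSF2 was Present on none and CSF3, which drives neutrophil production, on 2 Yorkshire arrays and no Shaziling array.

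**Figure D2:**
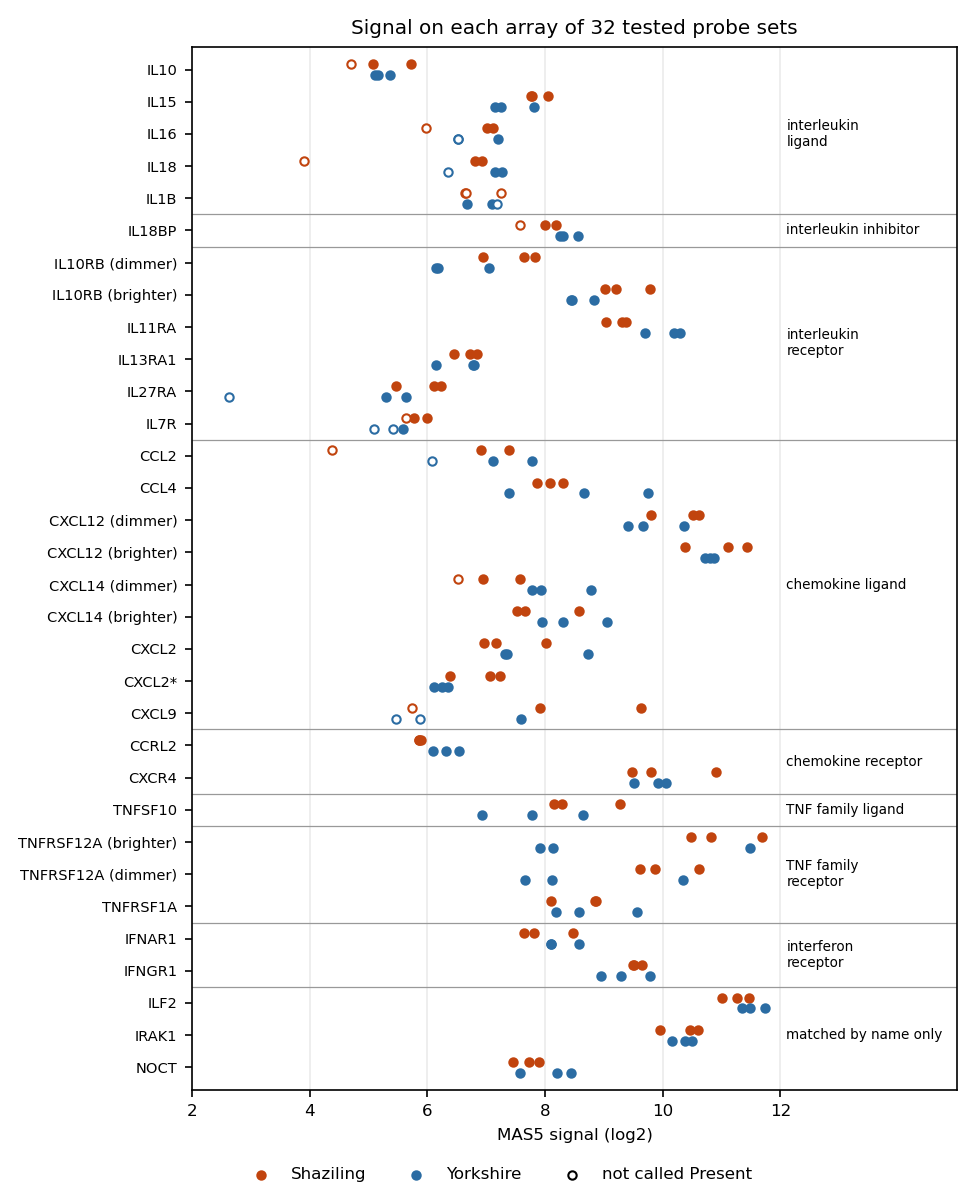
MAS5 signal (log2, horizontal axis) on each of the 6 arrays for 32 of the 35 tested probe sets, grouped by role (brighter and dimmer name the probe sets of one gene by mean signal), with Shaziling above Yorkshire in each row; open circles were not called Present, and CXCL2* is the other gene record with that symbol. CXCL9, CCL2, IL18 and TNFRSF12A spread over more than 1 log2 unit within a breed, while IL15, CCRL2 and IFNGR1 each lie within 1.

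The probe sets matched by name only had 5 of 6 Present on all 6 arrays. Among them, the differences were -0.28 ± 0.19 for ILF2, -0.38 ± 0.29 for NOCT and 0.00 ± 0.23 for IRAK1, all with overlap. ILF2 had the brightest mean signal of the 87, at 11.38.

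The breed comparison covered the 35 probe sets Present on at least 3 of 6 arrays (40.2% of the 87, against 60.1% of all). None of them passed an adjusted p of 0.05 (0 of 35), where 31 of 14413 tested probe sets did (0.215%, with 0.0971% higher and 0.118% lower in Shaziling), and the smallest adjusted p was 0.285. At an unadjusted p under 0.05 there were 5 of 35 (14.3%), against 10.4% of all tested. They were both probe sets of IL10RB and the brighter of TNFRSF12A, with higher means in Shaziling (3 of 35, against 4.38% of all). The others were IL11RA and the dimmer CXCL14 probe set, with lower means (2 of 35, against 6.02%). The breeds did not overlap for 7 of 35, against 16.3% of all tested. Shaziling lay above for the brighter IL10RB probe set, the CXCL2 probe set with the positive difference and IL7R (3 of 35, against 7.42%). Shaziling lay below for IL11RA, the dimmer CXCL14 probe set, IL18BP and CCRL2 (4 of 35, against 8.89%). These shares lie near the background, and at these numbers they are no result about the cytokine system.

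**Figure D3:**
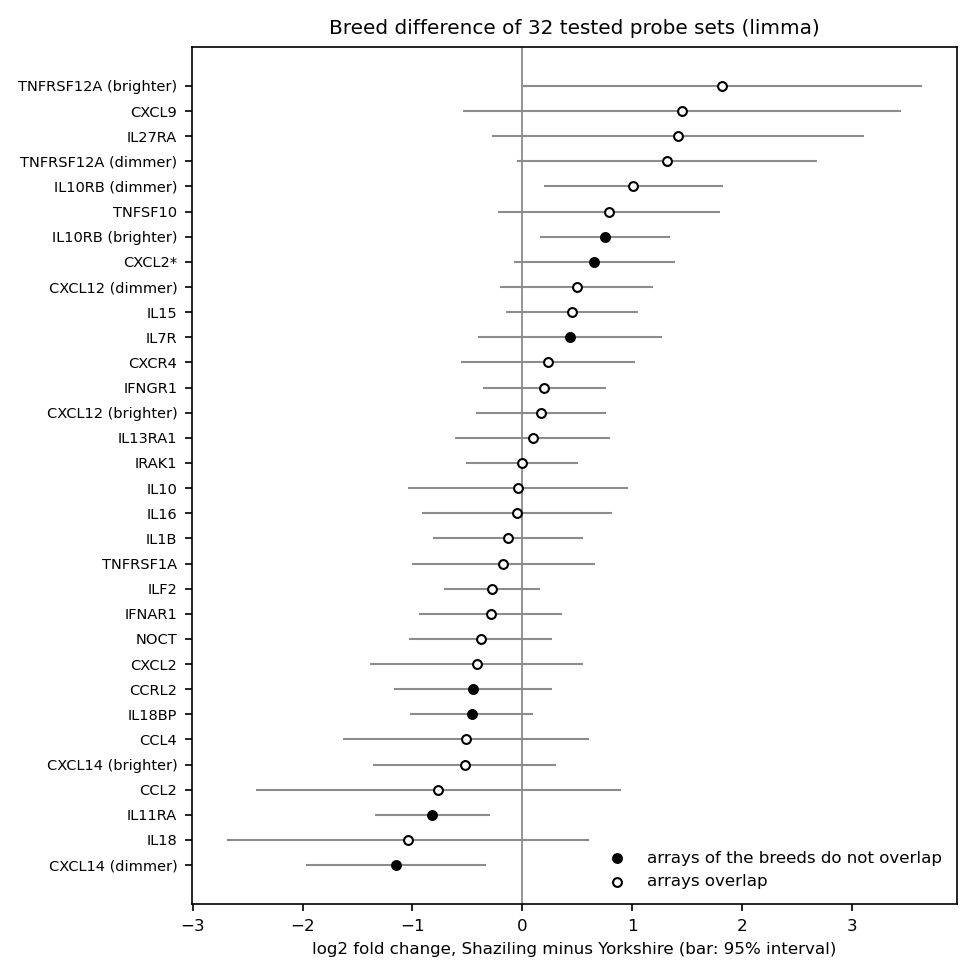
Difference between breeds (log2, Shaziling minus Yorkshire, horizontal axis) with its 95% interval from limma for 32 of the 35 tested probe sets, in order of size; filled circles mark probe sets whose arrays do not overlap between breeds. The differences run from -1.15 for CXCL14 to 1.82 for TNFRSF12A, and none of the 35 tested (0 of 35) passed the adjusted threshold.

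No common direction was seen. The 35 differences were positive for 16 and negative for 19, and 45.7% were positive, against 46.2% of all tested. The 19 count IRAK1, at -0.0004, as negative. The median was -0.04 for both. Without the probe sets matched by name only, 16 of 30 had a positive and 14 a negative difference and their median was 0.13, so the sign of the median turned on them, and 0 of 30 passed. The median size of a difference was 0.45 on the log2 scale, against 0.25 for all tested, and the intervals were wide: their median half-width was 0.73, against 0.64. Only 9 of 35 intervals lay within 1 log2 unit either side of 0 (25.7%, against 57.5% of all tested), so for most of these probe sets the interval at 3 animals a breed reached past 2-fold in at least 1 direction.

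**Figure D4:**
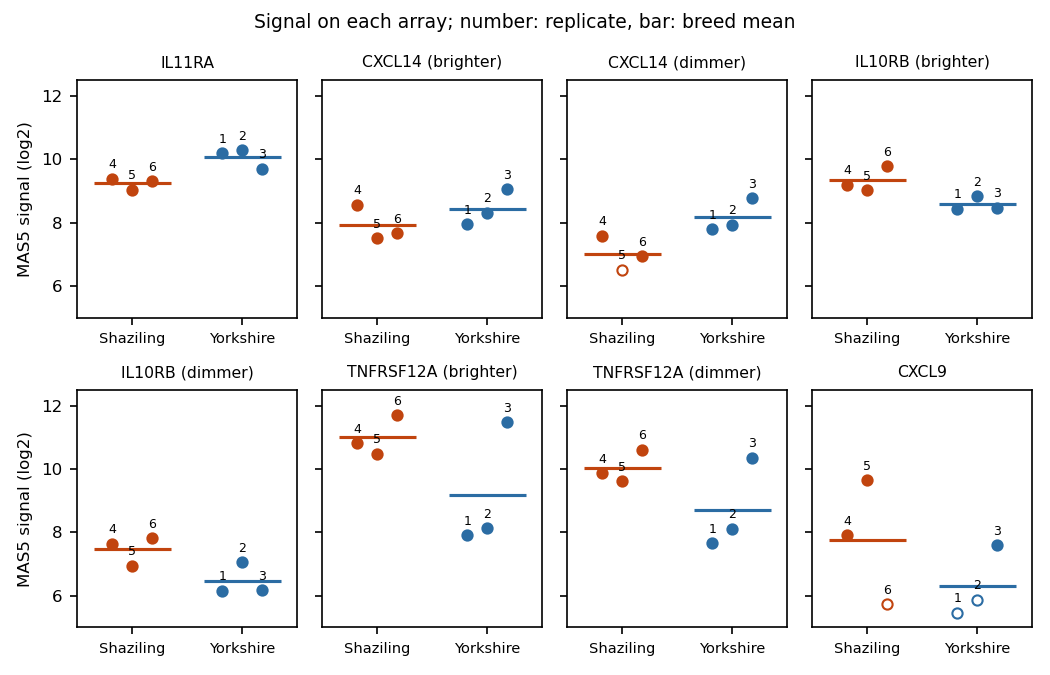
MAS5 signal (log2, vertical axis) on each array for IL11RA, CXCL14, IL10RB, TNFRSF12A and CXCL9, with Shaziling to the left of Yorkshire in each panel; numbers are replicates, bars are breed means and open circles were not called Present. Yorkshire replicate 3 stands with the 3 Shaziling arrays on both probe sets of TNFRSF12A, and IL11RA does not overlap between breeds.

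Where a gene was read by 2 tested probe sets, they had the same sign. This held for 5 genes, among them CXCL12, CXCL14, IL10RB and TNFRSF12A, apart from the pair of records under the symbol CXCL2. Probe sets of a gene share the same RNA, so this shows only that the arrays read these transcripts alike.

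Differences between siblings were large for a few of the genes. The within-breed SD had a median of 0.37 over the 35, against 0.34 over all tested. CXCL9 had 1.60, above 99.4% of all tested probe sets, TNFRSF12A had 1.48 and 1.08 (99.3% and 97.7%), CCL2 had 1.29 (98.7%), IL18 had 1.27 (98.6%), IL27RA had 1.20 (98.4%) and CCL4 had 0.85 (95.2%). For CCL2, IL18, IL27RA and CXCL9 the low arrays were called Absent. TNFRSF12A and CCL4 were Present on all 6, so their spread lies among detected signals. CCRL2 and IL7R lay at the other end, with 0.16 and 0.22.

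**Figure D5:**
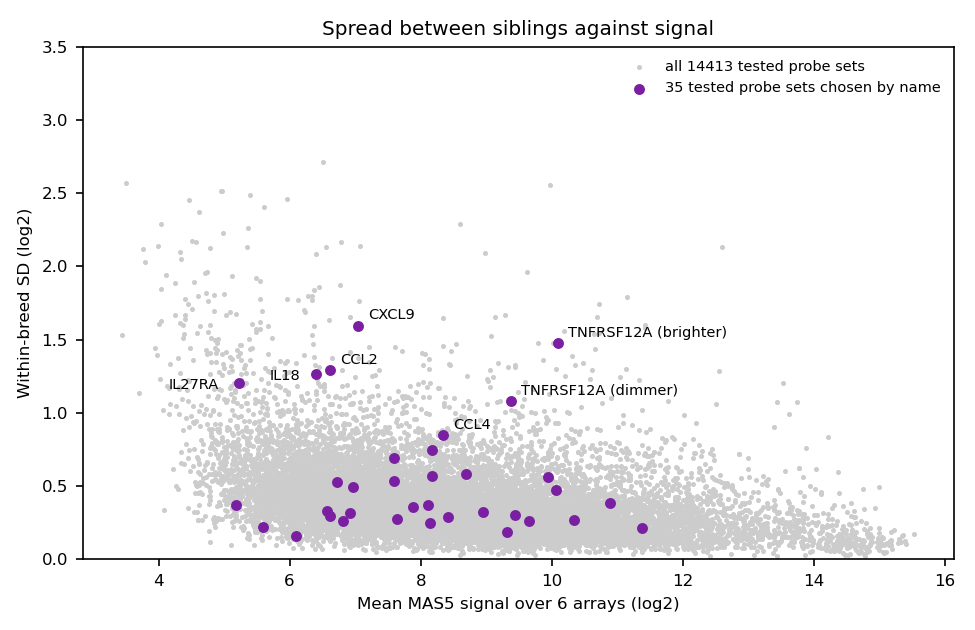
Within-breed SD (log2, vertical axis) against mean MAS5 signal over the 6 arrays (log2, horizontal axis) for all 14413 tested probe sets (grey) and the 35 chosen by name (purple). TNFRSF12A stands out at a mean signal of 10.09, while CXCL9, CCL2, IL18 and IL27RA lie among dimmer probe sets.

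The signalling genes downstream showed no called difference either, with 0 called in each of the lists below. In these lists on the array again means found by name, and each gene is represented by its probe set of highest mean signal. A gene counts as tested only if that probe set passed the detection filter, and as Present on none only if all its probe sets were. For JAK and STAT signalling, 10 of 11 genes were on the array and 8 were tested, 7 with positive and 1 with negative differences and a median of 0.17. JAK2, the kinase of many cytokine receptors, differed by 0.54 ± 0.31, STAT2, of the type I interferon response, by 0.39 ± 0.32, STAT5B by 0.39 ± 0.37 and JAK1 by 0.13 ± 0.15. For NF-kB and the TNF and interleukin-1 receptor pathway, 9 of 26 genes were on the array and 8 tested, 2 positive and 6 negative, with a median of -0.08. The 6 include MYD88 (-0.005) and IRAK1 (-0.0004), whose differences were close to none. FADD, the death-receptor adaptor, differed by 0.43 ± 0.22, RELA, the NF-kB subunit p65, by 0.40 ± 0.23, MAP3K7, the kinase TAK1, by -0.49 ± 0.38 and IKBKG, the regulatory subunit of the IKK complex, by -0.16 ± 0.29. The medians are to be read beside -0.04 for all tested probe sets.

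Feedback inhibitors were partly below detection. SOCS1 and SOCS3, which cytokine signalling induces and which then block it, were Present on none. Of the 7 SOCS, PIAS and phosphatase genes on the array 5 were tested, 4 with positive and 1 with negative differences, including PIAS3 (0.52 ± 0.29), SOCS6 (0.25 ± 0.26), PIAS1 (0.09 ± 0.19) and the phosphatase PTPN6 (1.15 ± 0.83, or 0.01 without Yorkshire replicate 1). Of the other interleukin-6 family genes on the array, LIF was Present on none. In the list of receptors for colony-stimulating factors, which also holds related receptors and ligands, 3 genes were tested. KIT, the receptor for stem cell factor and a mast cell marker, had signals of 6.05, 6.28 and 5.79 in Shaziling and 6.93, 6.83 and 7.49 in Yorkshire. All Shaziling values of KIT lay below all Yorkshire values, with a difference of -1.04 ± 0.32 (limma adjusted p = 0.306). Its ligand KITLG differed by 0.43 ± 0.26 and CSF1R, the macrophage growth factor receptor, by 0.20 ± 0.32. The other mast cell marker on the array was MS4A2. Signals of MS4A2 were 5.74, 5.66 and 6.23 in Shaziling and 3.47, 5.25 and 2.18 in Yorkshire. It was Present on 1 Shaziling array only, so its difference was not tested and no direction is read from it.

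Markers of several immune cell types were read mostly at or below detection. S100A9, a granule protein of neutrophils and monocytes, was Present on 3 Shaziling arrays and 0 Yorkshire arrays. Its signals were 5.98, 6.40 and 6.66 in Shaziling and 3.12, 4.89 and 4.82 (Absent) in Yorkshire. S100A9 passed the detection filter through the Shaziling arrays alone and the Yorkshire side has only a bound, so the size of its difference was not read. Of the other neutrophil markers on the array, S100A8 was Present on 2 arrays and S100A12 and ELANE on none. The summed linear signal of these 4 genes was 147 to 174 in Shaziling and 71.1 to 112 in Yorkshire, that of the dendritic cell markers XCR1 and FLT3 was 109 to 121 in Shaziling and 59.7 to 80.9 in Yorkshire, and that of the mast cell markers KIT and MS4A2 was 119 to 131 in Shaziling and 133 to 185 in Yorkshire. FLT3 was Present on none and MS4A2 on 1 array, so these sums rest in part on signals that were not called Present, and no direction is read from them. The summed T and NK cell markers were 317 to 442 in Shaziling and 311 to 408 in Yorkshire. The part of these cells in the differences of CXCL2, CXCL9, CCRL2 and IL7R was not tested.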

How the data were processed

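Per the submitters' processing notes, the signals come from MAS5, whose version the sources used here leave out. The deposited values are log2 MAS5 signals with Present, Marginal or Absent calls, per the file headers, and 1 of the 2 deposited tables, which held equal signals, was used. MAS5 subtracts mismatch probes, so low signals are noisy and a lowest value of 0 occurs; all arrays were scaled to one level. The percent identity of a probe set's genome alignment is deposited by the authors in the same table. Symbols were brought up to date through Entrez IDs and a RefSeq gene table (81 of 87 matched); 73 have a position, of an assembly that could not be read.

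Probe sets Present on at least 3 of 6 arrays (14413) entered a breed comparison with R 4.3.3 and limma 3.58.1 (lmFit, eBayes with trend), as Shaziling minus Yorkshire, two-sided, with Benjamini-Hochberg adjustment over all 14413 and a threshold of 0.05. The number of arrays limits the precision. The script was tested on simulated data. Counts and tables were made with Python 3.11.15 and pandas 2.3.3.

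The probe sets, the gene lists and the naming rule were chosen with earlier results of these data known, so lists get counts and medians and no test. The rule names members past the threshold, genes Present on all 6 arrays, up to 8 probe sets of smallest p per direction, well-known cytokine genes whatever their result, and up to 4 genes of smallest p per pathway list; IL1R1 and CSF1 were not analysed here. The other members are named to account for the set; a few genes are counted in it but not reported here. Of the other marker lists, endothelial genes had 4 tested and fibroblast and adipocyte genes 3 each, with 0 called. Mast cell genes had 1 tested and dendritic cell genes 0, and no listed erythroid gene was found by name on the array. Alternatives covered the scaling, the detection filter, a floor of 16 on the linear signal, the variance model, array weights, the mean over a gene's probe sets, leaving out each array, other ways of counting detection and the matching of names.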

Additional observations from a re-analysis of the deposited data

How the results depend on the processing

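Under 15 alternatives 24 of the 35 tested probe sets kept the sign of their difference, 10 did not and IRAK1, at 0.00, has no direction; scaling moved the median of all tested probe sets by at most 0.037. Array weights gave 364 calls over all probe sets and 1 among the 35 (IL11RA, -0.89, limma adjusted p = 0.0451, where its adjusted p ran from 0.0451 to 0.67 over all alternatives). Over all probe sets there were 13 calls with no filter, 19 with those Present on all 6 arrays and 8 without the variance trend. Leaving out 1 array gave 0 to 27 calls over all probe sets and 0 to 1 among the 35, the 1 being TNFRSF12A without Yorkshire replicate 3. It gave 0 (limma) without Yorkshire replicate 1 and without Shaziling replicate 6, with 1020 and 1096 at an unadjusted p under 0.05. Counting probe sets Present on at least 1 array gave 47 in place of 25. Signs turned with array weights for TNFRSF1A (0.20), the brighter CXCL12 probe set (-0.0089), CXCR4 (-0.053), IFNGR1 (-0.092) and IL16 (0.14, and 0.016 with cyclic loess), and with the mean over a gene's probe sets for FADD (-0.19) and JAK1 (-0.33), where IRAK1 came to 0.79. With 1 array left out the differences ran from -0.47 to 0.22 for TNFRSF1A, -1.34 to 0.16 for CCL2, -1.12 to 0.063 for CCL4, -0.054 to 0.47 for that probe set of CXCL12, -0.74 to 0.046 for CXCL2 (the probe set with the negative difference), -0.19 to 0.52 for CXCR4, -0.31 to 0.19 for IL10, -0.25 to 0.32 for IL16, -0.12 to 0.21 for IL13RA1 and -0.35 to 0.036 for IKBKG. The cause was not tested. No paired analysis was possible because the replicate numbers of the breeds are not shared. Dim signals limit 52 of the 87 probe sets, which were not Present on 3 arrays.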
